A study of Mus musculus with 24 samples.

Results

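The gamma crystallins are a family of small structural proteins of the eye lens. The 8 genes described here, Cryga, Crygb, Crygc, Crygd, Cryge, Crygf, Crygn and Crygs, were taken by name from a matrix of 23947 gene symbols. All 8 were found. No cut on a measured value picked them, but they were chosen with earlier results of these data known. The RNA came from CD-1 mice in 3 libraries: forebrain at E12.5, and lens epithelium and lens fiber at postnatal day 1. Each group held 1 library, so no value below has a replicate error, no difference was tested, and whether neighbouring levels differ beyond biological spread cannot be said. The labels name no genotype, allele or treatment, and do not give the number of animals per library. All lens RNA was newborn and all forebrain RNA embryonic, and in comparisons with forebrain, age cannot be told apart from tissue.

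Lens epithelial cells form a proliferating sheet at the front of the lens, and the cells that leave the cycle at its equator elongate into fibers and fill with crystallins. Crystallins come as alpha crystallins, which are small heat shock proteins, and as beta and gamma crystallins, which share a fold of paired Greek key domains. Gamma crystallins stay as monomers, pack densely in the fiber core and serve as a classical readout of fiber differentiation, and mutations in several of the genes cause inherited cataract in mouse and human. Cryga to Crygf lie on mouse chromosome 1 and are close relatives of each other. Crygs, on chromosome 16, and Crygn, on chromosome 5, are more distant members of the family, and Crygn is regarded as an intermediate between beta and gamma crystallins. In the RefSeq gene table of GRCm38.p6, Cryga, Crygb, Crygc, Crygd and Cryge are neighbours with no other protein-coding gene among them, and 4 protein-coding genes lie between Cryga and Crygf.

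To show how alike the starts of these genes are, the 110 bases before the annotated transcription start are printed for 6 of them, from RefSeq's table of promoters for GRCm38.p6, a build of the C57BL/6J genome. They are Cryga, the most abundant member in fiber, and Crygc, which differed from its neighbours in epithelium. Cryge and Crygf, the closest pair over 250 upstream bases, and the outlying members Crygn and Crygs complete the set. Each runs 5′ to 3′ on the strand of its gene and ends at the base before the start. Capitals mark TTTGTG and TATATA, the only stretches of at least 6 bases found on the gene's strand in the 250 upstream bases of all 6 genes on chromosome 1.
Cryga, chr1:65103364-65103473, minus strand: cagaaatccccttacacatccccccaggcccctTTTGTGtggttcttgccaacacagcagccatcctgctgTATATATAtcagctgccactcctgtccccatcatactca
Crygc, chr1:65073533-65073642, minus strand: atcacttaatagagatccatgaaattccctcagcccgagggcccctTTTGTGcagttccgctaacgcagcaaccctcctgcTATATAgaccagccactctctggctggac
Cryge, chr1:65051164-65051273, minus strand: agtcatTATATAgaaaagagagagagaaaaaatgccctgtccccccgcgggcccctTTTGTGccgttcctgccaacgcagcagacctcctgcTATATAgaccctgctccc
Crygf, chr1:65926412-65926521, plus strand: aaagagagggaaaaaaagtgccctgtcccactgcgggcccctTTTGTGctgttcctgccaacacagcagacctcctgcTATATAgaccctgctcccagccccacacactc
Crygn, chr5:24757849-24757958, minus strand: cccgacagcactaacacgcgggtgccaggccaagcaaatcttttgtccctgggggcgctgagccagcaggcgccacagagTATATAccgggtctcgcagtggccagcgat
Crygs, chr16:22811411-22811520, minus strand: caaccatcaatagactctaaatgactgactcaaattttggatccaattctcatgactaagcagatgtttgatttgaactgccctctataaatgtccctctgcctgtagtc

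In lens fibers the family filled the top of the expression range. Its 8 genes summed to 1027664 RPKM, 39.5% of all RPKM of that library, and Cryga, Cryge and Crygb ranked 1, 2 and 3 among 23947 symbols. The other members ranked 11 (Crygd), 14 (Crygc), 17 (Crygf), 18 (Crygs) and 19 (Crygn). In these bulk samples fewer cells of a type and less RNA per cell cannot be told apart. In epithelium the sum was 1521 RPKM, 0.259% of the library, and in forebrain it was 49.1 RPKM, 0.00821%. The non-coding RNAs Rmrp, Snord15b and Rpph1 took 39.8% of the epithelium sum and 41.8% of the forebrain sum but 13.2% of the fiber sum. Over protein-coding genes alone the family made up 48.8% in fiber, 0.636% in epithelium and 0.0187% in forebrain. RPKM by definition scales reads by gene length and library size, so these are levels per length. Within a library they can be compared between genes, except that close members may share reads. How the libraries were scaled to each other was not given in the sources used here.

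Cryga was listed at 17.8 RPKM in forebrain, 341.9 in epithelium and 403509 in fiber. Cryge was listed at 8.57, 208.4 and 188925 RPKM in the same order, and Crygb at 8.36, 153.9 and 188047. Each of the 3 was lowest in forebrain and highest in fiber, and their order, with Cryga first, then Cryge and then Crygb, was the same in all 3 libraries. Crygd was listed at 5.27, 133.9 and 97732 RPKM, and Crygc at 5.33, 261.0 and 74425. Crygc was thus nearly level with Crygd in forebrain, 1.95 times as high in epithelium and 0.762 times as high in fiber. Crygf, the lowest of the genes on chromosome 1, was listed at 1.41, 25.4 and 30486 RPKM.

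Crygs, a crystallin of the lens cortex that stays expressed late in life, was listed at 1.35 RPKM in forebrain, 217.9 in epithelium and 22918 in fiber. Crygn was listed at 1.04, 178.7 and 21622 RPKM. These were the lowest members in fiber and among the middle ones in epithelium, where Crygs ranked 149 and Crygn 182 of all symbols against 93 for Cryga and 1755 for Crygf.

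**Figure D1:**
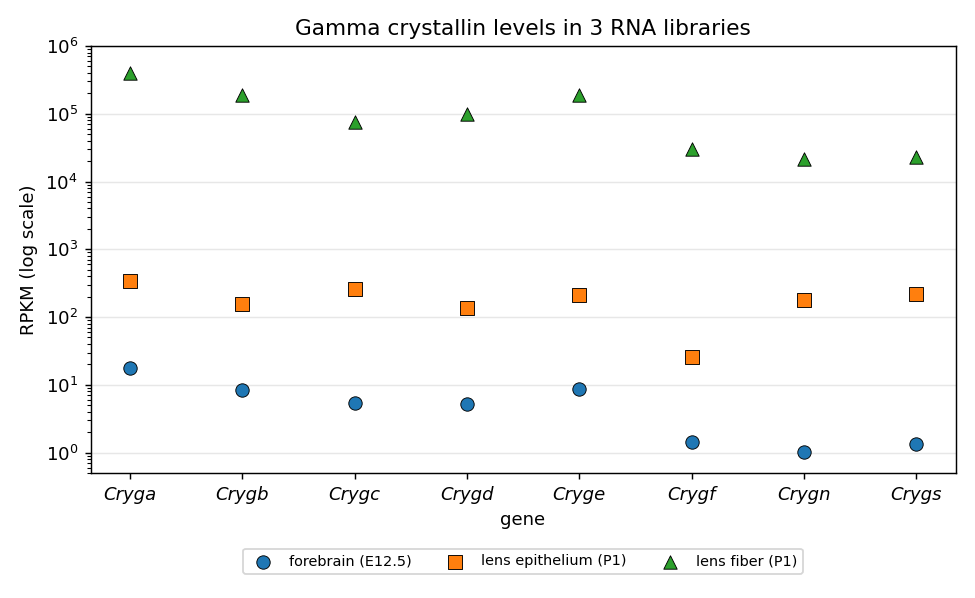
RPKM of each of the 8 gamma crystallin genes (x axis) on a log scale (y axis), with 1 point per library for forebrain, lens epithelium and lens fiber. All 8 fiber points lie between 21622 and 403509 RPKM, the epithelium points between 25.4 and 341.9, and the forebrain points between 1.04 and 17.8.

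The library labels held against marker genes. On RPKM + 1, the 9 fiber markers reported here were at least 4-fold higher in fiber than in forebrain, as were 6.37% of all genes tested. Of 10 epithelium markers, 7 were at least 4-fold lower in fiber than in epithelium, beside 8.12% of all genes. All 10 forebrain markers were at least 4-fold lower than in forebrain in both lens libraries, beside 3.25% of all genes in epithelium and 11.4% in fiber.

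Fiber was set against epithelium to describe the genes across fiber differentiation. As log2((RPKM + 1)/(RPKM + 1)), the ratio was 10.25 for Crygb, 10.20 for Cryga, 10.18 for Crygf, 9.82 for Cryge and 9.50 for Crygd, the 5 highest of 12090 genes. These are the genes that reached 1 RPKM in fiber or epithelium. Crygc followed at place 9 with 8.15, and Crygn (6.91) and Crygs (6.71) stood at places 18 and 19. On the linear scale the RPKM ratios ran from 105.2 for Crygs to 1222 for Crygb. All 8 were at least 4-fold higher in fiber, against 3.75% of all genes tested, and their median log2 ratio was 9.66 against -0.42 for all genes tested. With each library scaled to an equal sum of RPKM the median was 7.52, since the fiber sum (2603161 RPKM) was far above that of epithelium (587475). Under that scaling, genes with at least 1 RPKM in both libraries shifted from a median of -0.20 to -1.94, and the genes at least 4-fold different split into 106 higher and 5729 lower in place of 453 and 982. With sums over genes outside the crystallins they split into 348 and 1899, and all 8 gamma crystallins remained above 4-fold in each of these settings.

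In fiber against forebrain all 8 were at least 4-fold higher, beside 6.37% of genes tested. The log2 ratios were close together, from 13.25 for Crygs to 14.39 for Cryga, with a median of 13.78 against -0.41 for all genes. In epithelium against forebrain all 8 were again at least 4-fold higher, beside 4.68% of genes tested. Here Crygs (6.54) and Crygn (6.46) had the highest log2 ratios and Crygc followed with 5.37. The others lay between 3.45 for Crygf and 4.45 for Cryge. The ratios of low values are understated by the pseudocount of 1 RPKM, which also alters the order of the genes. Without it Crygf was 17.9 times and Crygn 172 times as high in epithelium as in forebrain, beside 18.4 for Crygb and 19.3 for Cryga. For fiber over forebrain the lowest RPKM ratio without it was 13957, for Crygc, below Crygs (17014) and Crygn (20812). Both comparisons use the forebrain values as listed, and whether those reads came from forebrain RNA or were carried over from another library was not tested. The 3 comparisons share libraries, so their ratios are not independent of each other. For fiber over forebrain, equal sums gave 249 genes higher and 5721 lower in place of 777 and 1387, and sums outside the crystallins gave 674 and 2214.

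**Figure D2:**
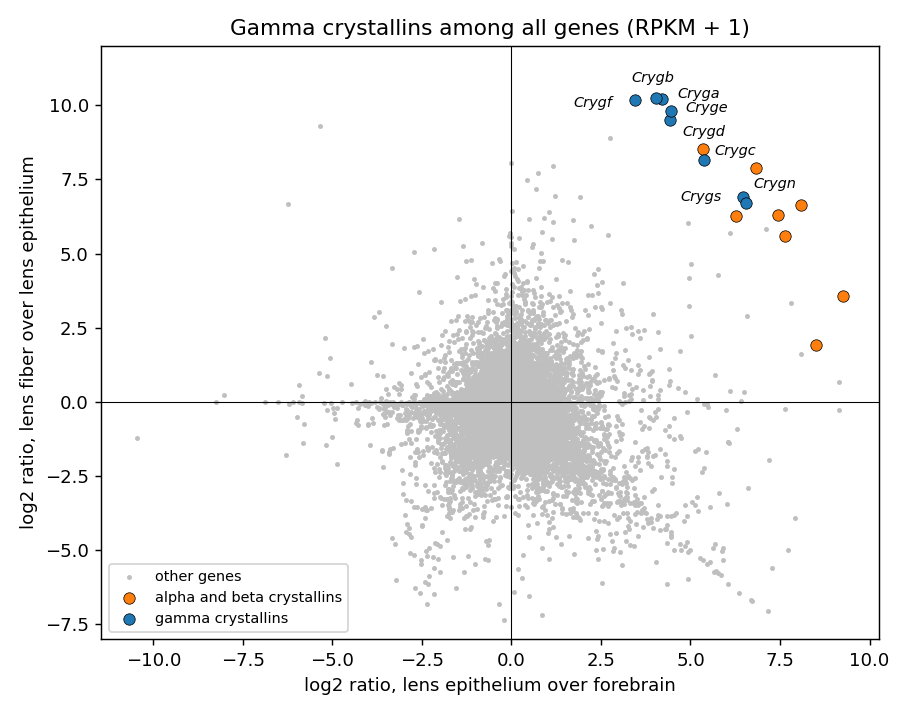
Log2 ratio of lens epithelium over forebrain (x axis) against lens fiber over lens epithelium (y axis), both on RPKM + 1, with 1 point per gene. The 8 gamma crystallins lie in the upper right, with Crygn and Crygs to the right of and below the 6 genes of chromosome 1, near several beta crystallins.

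The makeup of the gamma crystallin RNA within a library does not depend on how the libraries were scaled to each other. In fiber, Cryga made up 39.3% of the summed gamma crystallin RPKM, Cryge 18.4%, Crygb 18.3%, Crygd 9.51%, Crygc 7.24%, Crygf 2.97%, Crygs 2.23% and Crygn 2.10%. In epithelium Cryga stood at 22.5% and Crygb at 10.1%, while Crygc was at 17.2%, Crygs at 14.3% and Crygn at 11.7%. The forebrain shares were close to those of fiber, with Cryga at 36.2%, Crygb at 17.0%, Crygc at 10.9% and Crygn at 2.12%. The widest gap between forebrain and fiber was 3.62 percentage points, for Crygc, whereas between epithelium and fiber it was -16.8 points, for Cryga. The 6 genes on chromosome 1 together were 22.1 times Crygn and Crygs together in fiber, 19.6 times in forebrain and 2.84 times in epithelium.

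**Figure D3:**
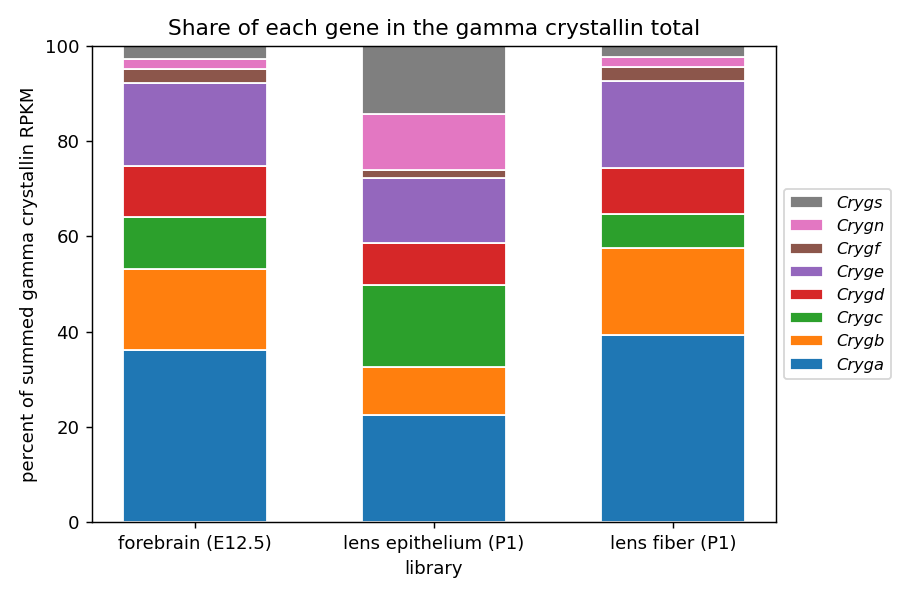
Share of each gene in the summed gamma crystallin RPKM (y axis, percent) of each library (x axis). The forebrain and fiber bars are alike, with Cryga at 36.2% and 39.3%, while in the epithelium bar Crygc, Crygn and Crygs take larger shares.

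The epithelium library was then read against the fiber library gene by gene, as RPKM in epithelium per 100000 RPKM in fiber. Cryga (84.7), Crygb (81.9) and Crygf (83.2) had nearly the same value, with Cryge at 110.3 and Crygd at 137.0. Crygc stood apart from its neighbours at 350.6. Crygn and Crygs were at 826.4 and 950.7, so the 8 genes spanned 11.6-fold on this scale.

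The same scale was applied to genes fixed as markers of lens fibers and to the other crystallins. The 9 fiber markers ran from 193.1 for Bfsp1, a subunit of the fiber's beaded filaments, to 13162 for Gja3, a fiber connexin, with a median of 1757. Of these, 6 lay above the highest gamma crystallin and none lay below the lowest. The 8 alpha and beta crystallins ran from 270.6 for Cryba4 to 26476 for Cryab, a small heat shock protein also made by epithelial cells, with a median of 1276. Markers of other cells were also listed in the epithelium library: 8 blood genes summed to 343.7 RPKM there against 6.33 in fiber, and 8 mesenchyme and vessel genes to 31.9 against 0.770. The part of fiber or other cells in the epithelial gamma crystallin values was not tested.

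In forebrain the 8 genes were at 4.40 (Cryga) to 7.17 (Crygc) RPKM per 100000 in fiber, a span of only 1.63-fold. The 8 alpha and beta crystallins spanned 19.3-fold in forebrain, from 2.51 for Cryba2 to 48.5 for Cryab, with a median of 6.97 beside 4.72 for the gamma crystallins. The upper end of that span was set by Cryab and by Cryaa (13.1), and the 6 beta crystallins lay between 2.51 and 9.75, a span of 3.88-fold. Of the 9 fiber markers, 4 lay above the highest gamma crystallin, namely Bfsp1 (13.1), Bfsp2 (13.3), the lens aquaporin Mip (33.5) and Birc7 (59.1). Lim2, a fiber membrane protein, was at 6.60 and Gja3 at 3.27. The markers Dnase2b, Lgsn and Grifin were listed at 0 in forebrain, Grifin with 2298 RPKM in fiber. The forebrain levels of these genes were low, at most 18.2 RPKM for any crystallin. Of the 9 fiber markers only Mip (2.01 RPKM) and Lim2 (1.07) reached 1 RPKM in forebrain. Bfsp1 was listed there at 0.719 RPKM, Bfsp2 at 0.921, Birc7 at 0.168 and Gja3 at 0.0239, so their places on this scale are uncertain. In fiber Dnase2b was at only 51.6 RPKM and Lgsn at 10.5, so their listing at 0 in forebrain says little. With sequencing depth unknown, how much the 0 of Grifin says could not be judged either.

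**Figure D4:**
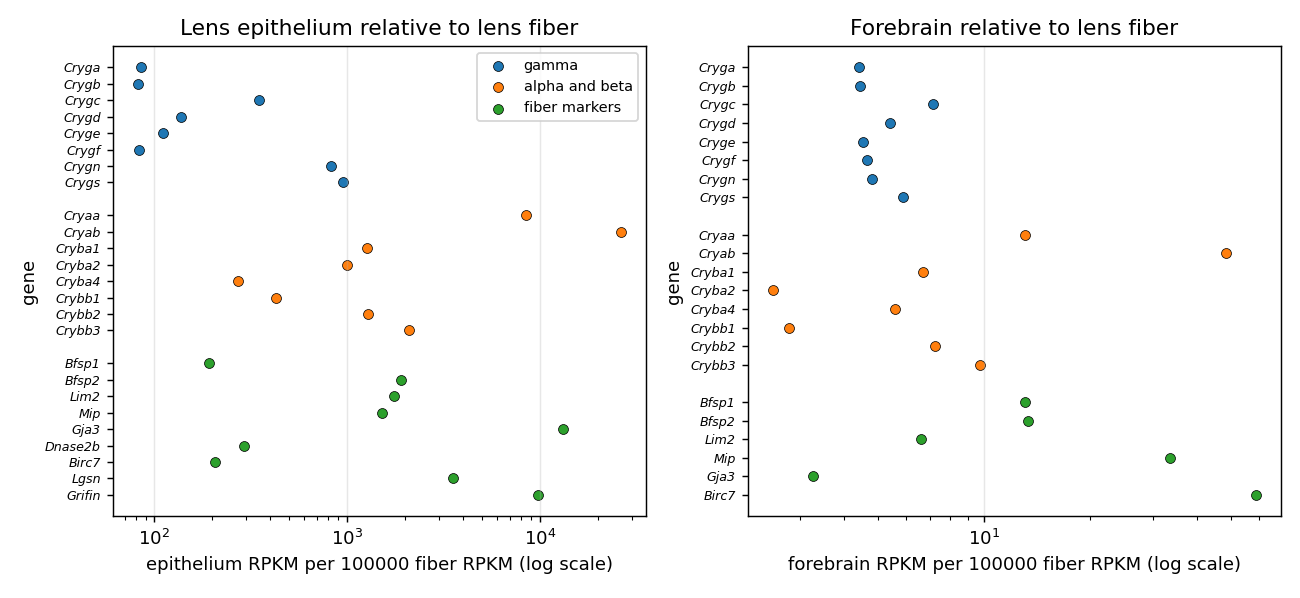
RPKM in lens epithelium (left) and forebrain (right) per 100000 RPKM in lens fiber, on log x axes, for each gamma crystallin, alpha or beta crystallin and lens fiber marker (y axis). Markers listed at 0 in forebrain are not drawn. In epithelium Crygn and Crygs lie at 826.4 and 950.7 and the genes of chromosome 1 at 81.9 to 350.6, while in forebrain all 8 lie between 4.40 and 7.17.

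The balance of gamma crystallins to alpha and beta crystallins also differed between libraries. Per RPKM of the 8 alpha and beta crystallins there were 1.33 RPKM of gamma crystallins in fiber, 0.0753 in epithelium and 0.838 in forebrain. In epithelium most of the other crystallin RNA was Cryaa, alpha A crystallin, at 11820 RPKM. Of the 8 alpha and beta crystallins, 7 were at least 4-fold higher in fiber than in epithelium, beside 3.75% of all genes tested, with a median log2 ratio of 6.29, led by Cryba4 (8.52) and Crybb1 (7.87) and ending with Cryaa (3.55) and Cryab (1.92). Of the 7 other genes of the beta-gamma fold or with crystallin in their name, 4 reached 1 RPKM in fiber or epithelium. None of these 4 was 4-fold different, which is near the share over all genes (3.75% higher and 8.12% lower), and the 7 were at most 17.3 RPKM in fiber.

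Among genes with at least 10 RPKM in 1 of the 3 libraries, 6280 outside the family were ranked by the distance of their ratios for epithelium over forebrain and fiber over epithelium, both in log2 units. The nearest to the median of the 6 genes on chromosome 1 were Cryba4 (distance 1.80), Bfsp1 (1.91), Crybb1 (3.30), the muscle-type phosphoglycerate mutase Pgam2 (3.76) and the connexin family gene Gje1 (3.89). Crygs had closer matches, Crybb2 (0.52), Cryba1 (0.98) and Lim2 (1.05). Those of Crygn were Crybb2 (0.67), Crybb1 (1.04) and Cryba1 (1.14). Likeness here rests on 3 libraries and 2 ratios.

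Several transcription factors are known to act on gamma crystallin genes, among them Maf, Sox1, Prox1, Pitx3 and Hsf4 as activators and Pax6 and Six3 as repressors. Of 16 such regulators and coactivators, 2 stood 4-fold or more above epithelium in fiber and 2 stood 4-fold or more below it, with a median log2 ratio of -0.26, while 3.75% of all genes were 4-fold higher and 8.12% 4-fold lower. Hsf4, the lens heat shock factor, was listed at 0.0465 RPKM in forebrain, 1.34 in epithelium and 156.5 in fiber, a fiber over epithelium log2 ratio of 6.07. Maf, the large Maf protein of fiber cells, was listed at 1.65, 29.9 and 162.4 RPKM (2.40). Both were therefore highest in the library in which the gamma crystallins were highest.

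The 2 lower regulators were Foxe3, a forkhead factor of the epithelium (19.4 RPKM in epithelium, 0.433 in fiber, -3.83), and Pax6 (141.6 and 24.0, -2.51). Prox1, a homeobox factor of fiber elongation, was listed at 1.03 RPKM in forebrain, 35.1 in epithelium and 122.5 in fiber and stayed below 4-fold between the lens libraries (1.77). In epithelium over forebrain 6 of the 16 were 4-fold or more above forebrain and 0 were that far below it, beside 4.68% of all genes higher and 3.25% lower. In fiber over forebrain 13 reached 1 RPKM, of which 5 were higher and 1 lower, beside 6.37% of all genes higher and 11.4% lower.

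The genes next to the gamma crystallins on the chromosomes were listed at far lower levels in fiber. The 3 nearest protein-coding genes on each side of the run from Cryga to Cryge, of Crygf, of Crygn and of Crygs gave 22 genes, of which 18 reached 1 RPKM in fiber or epithelium. Of these 18, 0 were at least 4-fold higher in fiber than in epithelium and 1, Wdr86 beside Crygn, was at least 4-fold lower (-3.25), near the shares of 3.75% and 8.12% over all genes. The highest fiber level among them was 74.6 RPKM, for the chaperone gene Dnajb11. Beside the cluster, Idh1, the cytosolic isocitrate dehydrogenase, was listed at 101.7 RPKM in forebrain, 64.6 in epithelium and 53.1 in fiber, and Akr1cl at 0, 0 and 1.01. Beside Crygf, the neuronal microtubule gene Map2 was listed at 56.0, 3.84 and 3.10 RPKM.

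Near-identical copies of a gene share reads, and no source used here says how the authors assigned such reads, so the split between close members is uncertain. The upstream identities below do not measure this sharing, since those bases lie before the annotated start of the transcript. In the 250 bases upstream of the start, Cryge and Crygf were 85.2% identical, the closest of the 15 pairs among the 6 genes, whose other identities ran from 60.4% to 73.2%. The 13 pairs with Crygn or Crygs lay between 54.4% and 59.6%. That is the level of unrelated promoters. Against 32843 promoters outside the family, Crygf had a median of 56.8% and a maximum of 65.6%. Crygn had a median of 58% and a maximum of 65.6%, and Crygs 56.8% and 65.2%. The lowest identity among the 6 genes, 60.4%, was reached by 4.61% of these promoters for Crygf, 15.4% for Crygn and 7.08% for Crygs. The lower identities among the 6 genes thus overlap those of unrelated promoters. In the 100 bases nearest the start the closest pair was instead Crygd and Crygf, at 91%. There Cryge and Crygf were at 81%, as were Crygd and Cryge. These windows end at the annotated start, and the nearest TATATA begins 18 bases before it in Cryge, 30 in Crygd and 32 in Crygf. The Cryge window is thus shifted against the other windows, and its 81% cannot be set directly against the 91%. In RPKM, Cryge and Crygf differed 6.20-fold in fiber, 8.22-fold in epithelium and 6.06-fold in forebrain. Summed, their fiber over epithelium log2 ratio was 9.87, and that of all 6 genes summed was 9.77. How far these sums depend on the assignment of shared reads was not tested. Transcript and protein sequences were not analysed here.

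**Figure D5:**
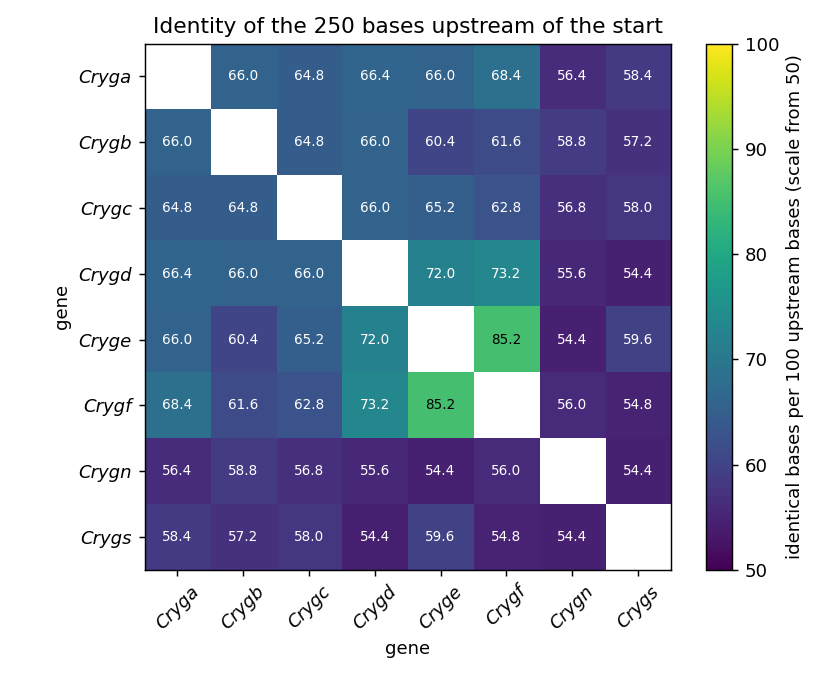
Percent identity of the 250 bases upstream of the annotated start for each pair of gamma crystallin genes (both axes), after global alignment, on a colour scale that starts at 50. Cryge and Crygf form the closest pair at 85.2%, and every pair with Crygn or Crygs is below 60%.

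In the sequences printed above, TATATA began 29 bases before the start in Crygc, 32 in Crygf and 30 in Crygn. In Cryga the marked run holds overlapping matches that began 39 and 37 bases before the start. In Cryge, whose annotated start lies nearer, a match began 18 bases before it and another 104 bases before it. Among all 32851 promoters of the table, 5.25% held TATATA in the 250 upstream bases. The classical TATAAA, in either direction, was found in 1 of the 8 genes, Crygs, 25 bases before the start, and in 12.4% of all promoters. TTTGTG was found on the gene's strand in all 6 genes on chromosome 1, which is how it was chosen. Among the 32851 promoters, 2627 held it on that strand and 15.6% in either direction. TGCTGA, part of the element bound by Maf proteins, was found in 4 of the 8 (Cryga, Crygc, Crygn and Crygs, between 200 and 229 bases before the start) and in 16.1% of promoters. AACAAT, a Sox core, was found in Crygd and Crygs (9.42% of promoters), ACAAAG, another Sox core, in Cryga and Crygb (16.5%), and TAATCC, the core of bicoid-type homeodomains, in Crygs (6.25%). In Crygb the match of ACAAAG overlaps that of TTTGTG. The paired heat shock unit GAANNTTC was found in none of the 8 and in 6.69% of promoters. Within the 8 genes TTTGTG was searched on the gene's strand only. The other sequences were searched on both strands within 250 bases, and all of these are matches of letters only.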

How the data were processed

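Total RNA was sequenced with a directional dUTP protocol, per the labels' protocols. Values are RPKM per gene as deposited by the authors, on mouse build mm9. The submitters' processing notes name the tools TopHat2 2, Cufflinks 2 and Cuffdiff but no roles. Annotation and between-library scaling were not given in the sources used here. Sequencing depth is unknown: values reached down to 1.1e-07, so they are estimates rather than whole reads, and among genes below 0.15 RPKM in both libraries the commonest ratio, 0.67 for epithelium over forebrain, held for 3.57%. Peak, island and open chromatin lists were not used here, since no gene positions on mm9 were given.

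Ratios are log2((RPKM + 1)/(RPKM + 1)), computed where a gene reached 1 RPKM in one of the libraries compared, with 4-fold (2 in log2) as threshold, and the code was tested on planted ratios. No p-value was computed. Of 23947 symbols, 23811 matched the RefSeq table of GRCm38.p6, used for names, gene types, neighbours and, for all 8 members, upstream sequence. Upstream bases were aligned with Biopython 1.88 (match 1, mismatch -1, gap opening -2, extension -0.5). Members and lists were chosen with earlier results of these data known. All 8 members are named, with the extremes of each list in fiber over epithelium and genes a sentence needed, and for likeness and neighbours the nearest genes. The forebrain values per 100000 in fiber, the identity against all promoters and the words TTTGTG and TATATA were added after the data were seen. Of the marker lists, 1 fiber gene and the retina list are not reported here.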

Additional observations from a re-analysis of the deposited data

How the results depend on the processing

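None of the 8 genes changed direction under the pseudocounts and scalings tried. The median log2 ratio of the 8 genes for fiber over epithelium was 9.67 with a pseudocount of 0.1 RPKM, 9.58 with 10 RPKM, 7.52 with equal sums over all genes, 9.16 with equal sums outside the crystallins and 9.89 with the median of shared genes set to 0. In the same order it was 14.26, 12.44, 11.83, 13.53 and 13.93 for fiber over forebrain, and 4.61, 3.61, 4.54, 4.59 and 4.49 for epithelium over forebrain. All 8 stayed past 4-fold in each, and without a filter or with at least 10 RPKM, except that 7 did in epithelium over forebrain with 10 RPKM added (Crygf, 1.63). Within the sum of protein-coding genes only, the family made up 48.8% in fiber, 0.636% in epithelium and 0.0187% in forebrain. No paired analysis was possible because each RNA group held 1 library. With 1 library per group, leaving out a replicate could not be done, and the unknown depth limits the low forebrain values most.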
